A study of Mus musculus with 6 samples.

Results

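Transcripts of branched-chain amino acid catabolism were examined in the left ventricles of adult mice that had been exposed to caffeine in utero. The 10 genes, of 43629 counted per heart, were chosen by symbol: Bckdha, Bckdhb, Dbt and Dld for the branched-chain α-keto acid dehydrogenase complex, Bckdk and Ppm1k for the kinase and phosphatase that act on it, Bcat2 for the transaminase, Ivd and Mccc1 for the leucine branch, and Klf15 for a transcription factor. The choice was made with earlier results of these data known. Poly(A) RNA was sequenced from 6 CD-1 mice, all male F1 offspring aged 1 year. Vehicle controls were 3 offspring of dams injected intraperitoneally with normal saline, and caffeine-treated hearts were 3 offspring of dams given 20 mg/kg caffeine by the same route. Injections were given once a day from embryonic day (E) 6.5 to 9.5 in one field of the labels, while another field ends the exposure at E10.5. CD-1 is an outbred strain, and the labels do not say which hearts shared a dam. The p-values therefore measure the spread between these 6 hearts, which may include litter.

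The branched-chain amino acids leucine, isoleucine and valine are oxidised mainly outside the liver, and the heart is one of the organs that does so. The mitochondrial transaminase BCAT2 takes off the amino group, and the dehydrogenase complex (BCKDH) then commits the keto acids to oxidation. Phosphorylation of the E1α subunit by BCKDK turns the complex off, and dephosphorylation by PPM1K, also called PP2Cm, turns it on. KLF15 is a Krüppel-like factor that activates genes of this pathway in heart and skeletal muscle, and loss of the pathway's transcripts has been described in failing hearts. Only transcript levels were measured here, not phosphorylation, flux or metabolites.

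Upstream sequence is shown for the phosphatase, for the kinase, for Bckdhb and for Klf15, because the results below turn on the contrast between Ppm1k and Bckdk, Bckdhb had the smallest unadjusted p among the genes of the complex, and KLF15 is the known activator. Each run is the 250 bases that end just before the RefSeq start on GRCm38.p6, written 5′ to 3′ along the gene's strand. They lie at chr6:57535488-57535737 on the minus strand (Ppm1k), chr7:127903823-127904072 on the plus strand (Bckdk), chr9:83924887-83925136 on the plus strand (Bckdhb, the first of its 2 RefSeq starts) and chr6:90462326-90462575 on the plus strand (Klf15). Capitals mark matches on either strand to the KLF core CACCC, which appears as GGGTG when the match is on the opposite strand. They also mark the E-box CACGTG, which reads the same on both strands. The last motif marked is the GC box CCGCCC, which on the opposite strand appears as GGGCGG. Matches to CACCC and CCGCCC can share bases.
Ppm1k: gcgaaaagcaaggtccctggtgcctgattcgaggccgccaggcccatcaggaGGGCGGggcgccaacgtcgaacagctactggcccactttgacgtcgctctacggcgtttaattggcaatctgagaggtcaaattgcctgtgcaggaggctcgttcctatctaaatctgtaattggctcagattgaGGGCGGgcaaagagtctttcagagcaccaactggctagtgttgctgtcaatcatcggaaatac
Bckdk: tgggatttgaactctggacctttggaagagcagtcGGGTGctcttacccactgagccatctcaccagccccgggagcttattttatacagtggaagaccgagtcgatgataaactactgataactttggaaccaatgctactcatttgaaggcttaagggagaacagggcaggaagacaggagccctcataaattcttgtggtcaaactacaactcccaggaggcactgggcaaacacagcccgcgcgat
Bckdhb: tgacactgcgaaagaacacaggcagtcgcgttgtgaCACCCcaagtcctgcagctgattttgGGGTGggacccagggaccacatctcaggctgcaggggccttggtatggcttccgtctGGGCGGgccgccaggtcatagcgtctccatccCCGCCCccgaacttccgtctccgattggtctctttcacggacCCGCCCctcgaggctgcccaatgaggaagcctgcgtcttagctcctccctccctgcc
Klf15: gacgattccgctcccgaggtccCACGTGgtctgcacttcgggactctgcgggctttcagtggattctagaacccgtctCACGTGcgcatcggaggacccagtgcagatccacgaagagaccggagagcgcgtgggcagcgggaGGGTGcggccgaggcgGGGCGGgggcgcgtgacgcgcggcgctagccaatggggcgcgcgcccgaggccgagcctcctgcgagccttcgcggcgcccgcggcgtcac

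RefSeq gave 11 such windows for 9 of the 10 genes, and none was matched for Dbt. CACCC occurred in 6 of the 11, against 52% of 32851 windows of the same length upstream of mouse genes. Ppm1k had no CACCC and 2 GC boxes, Bckdk had 1 CACCC, Bckdhb had 2 CACCC and 3 GC boxes, and Klf15 had 1 CACCC, 1 GC box and 2 E-boxes. The E-box was found in 1 of the 11 windows, that of Klf15, and in 6.02% of all windows. GC boxes stood in 4 of the 11 and in 32.7% of all windows. These are matches of letters and not sites of binding.

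Total counts were 9228359 to 10483101 in the vehicle controls and 7613011 to 9153997 in the caffeine-treated hearts, so every caffeine library was the shallower. By these raw totals 3 counts corresponded to 0.286 to 0.394 CPM, that is, counts scaled to a common library total. The CPM of genes also uses a TMM factor for each library, which this floor does not. The 10 most abundant genes of each library took 17.1% to 20.1% of counts in vehicle controls and 22.6% to 26% in caffeine-treated hearts. Ventricular identity was clear, since 6 cardiomyocyte markers summed to at least 34926 CPM and 3 atrial markers to 0.838 to 2.05 CPM. The cardiomyocyte sum was 45919, 38825 and 37653 CPM in vehicle replicates 1 to 3 and 34926 to 38359 CPM in caffeine-treated hearts. Vehicle replicate 1 thus stood above all other hearts in it. Of 4 skeletal muscle markers, the myosins Myh1 and Myh4 were at 0 in every heart. The sum of the 4 was 0.488, 0 and 0.506 CPM in vehicle replicates 1 to 3 and 0 in each caffeine-treated heart. Of 5 fibroblast markers, none was at 0, and their sum did not overlap between the groups, at 759 to 868 CPM in vehicle controls and 929.9 to 1068 CPM in caffeine-treated hearts. Most of this sum was Dcn, with a mean of 551 CPM in vehicle controls and 668 CPM in caffeine-treated hearts. Dcn was the only 1 of the 5 without overlap. Over all 13092 genes tested, 930 had every caffeine-treated heart above every vehicle control. Sums of 4 macrophage markers, none at 0, overlapped, at 69.97 to 109 CPM and 88.3 to 164 CPM. Within this sum, Adgre1 and Csf1r had every caffeine-treated heart above every vehicle control, and the other markers overlapped. Adgre1 was at 3.87 to 4.97 CPM in vehicle controls and 5.75 to 9.60 CPM in caffeine-treated hearts. The part of the depth, of the abundant genes and of these cell types in the results below was not tested. In a bulk sample, fewer cells of a type and less RNA per cell cannot be told apart.

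All 10 genes had a lower fitted level in caffeine-treated hearts, but none passed the thresholds of adjusted p below 0.05 and a fold change above 1.5 (edgeR quasi-likelihood test with Benjamini-Hochberg adjustment over 13092 genes). Across all genes 14 passed, which is 0.107%. The median log2 fold change of the 10 genes was -0.27, against 0.001 over all genes tested, of which 6526 (49.8%) had a value below 0. At an unadjusted p below 0.05, 7 of the 10 were lower (Ppm1k, Ivd, Bckdhb, Mccc1, Bckdha, Dbt and Bcat2), where 4.4% of all genes were. For 6 of the 10 every caffeine-treated heart lay below every vehicle control, where 7.13% of all genes did so. Because the 10 genes were chosen with earlier results of these data known, these counts describe the list and do not test it. The exact test and DESeq2 each gave 6 genes at an unadjusted p below 0.05 and 1 (Ppm1k) at an adjusted p below 0.05, and limma-voom gave 7 and 0, with no gene past both thresholds by any of them. The count of 7 fell to 3 when vehicle replicate 1 was left out and to 3 without caffeine replicate 3, so it leans on those hearts.

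Single hearts contributed unequally. Vehicle replicate 1 held the highest value of the 6 hearts for 7 of the 10 genes, and caffeine replicate 3 held the lowest for 5. Caffeine replicate 1 was lowest for 4 and caffeine replicate 2 for 1. The summed level of the 10 genes was 2519, 2244 and 2258.5 CPM in vehicle replicates 1 to 3 and 2011, 2089 and 1928 CPM in caffeine replicates 1 to 3. The groups did not overlap in this sum, and the gap from the lowest vehicle control to the highest caffeine-treated heart was smaller than the range among vehicle controls. As raw shares of the library the 10 genes took 0.246%, 0.234% and 0.242% of counts in vehicle controls and 0.189%, 0.203% and 0.194% in caffeine-treated hearts.

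**Figure D1:**
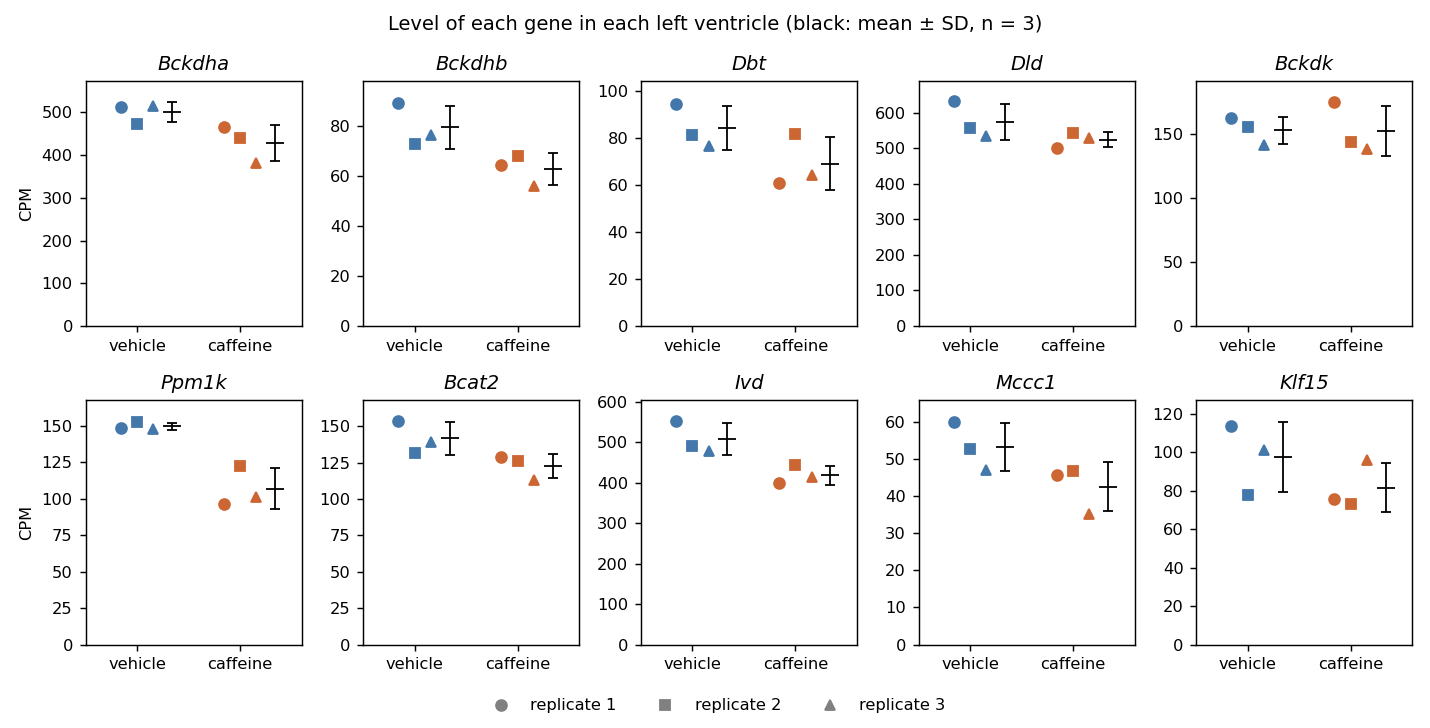
Level of each of the 10 genes in CPM, from 0, in each left ventricle; blue points are vehicle controls, orange points caffeine-treated hearts, symbols mark the replicate number, and black bars give the mean ± SD (n = 3 each). Ppm1k has the widest gap for its level, with vehicle controls at 147.7 to 152.5 CPM and caffeine-treated hearts at 96.3 to 122.6 CPM, and Bckdk overlaps throughout.

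The phosphatase and the kinase of the complex were read side by side. Ppm1k (chr6:57506502-57535468 in GRCm38, minus strand, 8 exonic blocks) encodes the phosphatase that switches the complex on. It was measured at 148.6, 152.5 and 147.7 CPM in vehicle controls and at 96.3, 122.6 and 101 CPM in caffeine-treated hearts. The vehicle controls lay within a narrow band and each caffeine-treated heart was below it, caffeine replicate 2 being the nearest. Means were 149.6 ± 2.56 and 107 ± 14.0 CPM (SD, n = 3), a log2 fold change of -0.49 ± 0.10 (SE), or 28.7% lower (unadjusted p = 0.000541, adjusted p = 0.134, edgeR quasi-likelihood test). Of the 10 genes it had the largest difference and the smallest p. Leaving out 1 heart at a time gave log2 fold changes of -0.60 to -0.42.

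Bckdk (chr7:127904082-127910221, plus strand) encodes the kinase that switches the complex off. Its level was 162, 155 and 141 CPM in vehicle controls and 175, 143 and 138 CPM in caffeine-treated hearts. The groups overlapped fully, with both the highest and the lowest value in the caffeine group. The log2 fold change was -0.007 ± 0.105 (SE; adjusted p = 0.992, edgeR quasi-likelihood test), and its sign turned when single hearts were left out.

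The relation between these 2 transcripts was also compared within each heart, per kilobase of exon, which does not depend on library scaling. The Bckdk to Ppm1k ratio was 1.77, 1.66 and 1.56 in vehicle controls and 2.96, 1.91 and 2.23 in caffeine-treated hearts. Every caffeine-treated heart therefore carried more kinase transcript per phosphatase transcript than any vehicle control, and caffeine replicate 1 stood highest. On the log2 scale the means were 0.73 ± 0.09 and 1.22 ± 0.32 (SD, n = 3), a difference of 0.49, or 1.4-fold. With Bckdk at -0.007 and Ppm1k at -0.49, this difference largely restates that of Ppm1k and is not a separate result. The exact two-sided permutation p was 0.1, the smallest that 20 labelings of 3 against 3 hearts can give, and 0.4 after Benjamini-Hochberg adjustment over the 8 ratios computed. The difference ranged from 0.31 (without caffeine replicate 1) to 0.63 (without caffeine replicate 2) when 1 heart was left out.

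Both were also set against E1α, their substrate. The log2 ratio of Ppm1k to Bckdha differed by -0.27 (0.83-fold) between caffeine-treated hearts and vehicle controls without overlap (exact permutation p = 0.1, adjusted p = 0.4). The Bckdk to Bckdha ratio was higher by 0.22, but the groups overlapped (exact permutation p = 0.2, adjusted p = 0.533). Ratios among the subunits and enzymes (Bckdha to Bckdhb, and Dbt, Dld, Bcat2 and Ivd to Bckdha) overlapped in all 5 cases, with differences of -0.07 to 0.11 and exact permutation p of 0.3 to 0.8. With 3 hearts a group, differences of that size could not be resolved.

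**Figure D2:**
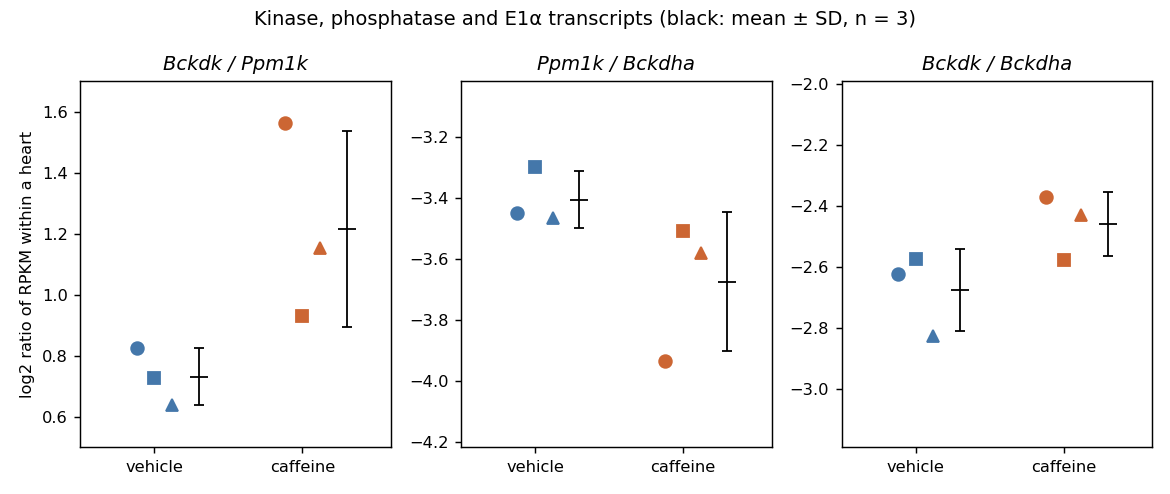
Log2 ratio of RPKM of the kinase to the phosphatase, the phosphatase to E1α and the kinase to E1α within each heart; the 3 panels share the same span, points are hearts (symbol by replicate number) and black bars the mean ± SD (n = 3). Kinase to phosphatase is at 0.64 to 0.83 in vehicle controls and 0.93 to 1.56 in caffeine-treated hearts, and only the third panel shows groups that overlap.

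The genes of the catalytic complex had smaller differences than Ppm1k. Bckdha encodes E1α, the subunit that BCKDK phosphorylates. It stood at 512.5, 474 and 515 CPM in vehicle controls and 464.5, 439.7 and 382 CPM in caffeine-treated hearts. The groups did not overlap, though vehicle replicate 2 and caffeine replicate 1 were close, and the log2 fold change was -0.22 ± 0.09 (SE; unadjusted p = 0.036, adjusted p = 0.534, edgeR quasi-likelihood test). Without caffeine replicate 3 it was -0.145 (unadjusted p = 0.175), and the unadjusted p was above 0.05 in 4 of the 6 fits with a heart left out. Exons of B3gnt8 on the opposite strand cover 61.7% of the exonic bases of Bckdha (chr7:25629946-25658981), and the kit did not mark strand. B3gnt8 itself had 18 to 43 counts in each heart. How reads in the shared stretch were assigned is not given in the sources used here, so the level of Bckdha is less certain than that of the other genes.

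Bckdhb encodes E1β, the partner of E1α. Its values were 89.25, 73.0 and 76.4 CPM in vehicle controls against 64.7, 68.2 and 55.95 CPM in caffeine-treated hearts. Vehicle replicate 1 was high and caffeine replicate 3 low, yet no heart crossed over to the other group. At -0.34 ± 0.11 (SE) on the log2 scale this was the largest difference of the complex (unadjusted p = 0.0103, adjusted p = 0.352, edgeR quasi-likelihood test). Without caffeine replicate 3 it was -0.26 (unadjusted p = 0.0559).

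Dbt encodes E2, the core that carries the acyl group on lipoic acid. It was at 94.5, 80.9 and 76.5 CPM in vehicle controls and 60.9, 81.7 and 64.1 CPM in caffeine-treated hearts. Caffeine replicate 2 fell among the vehicle controls, while the other caffeine-treated hearts lay below them. The log2 fold change was -0.28 ± 0.13 (SE; unadjusted p = 0.0454, adjusted p = 0.557, edgeR quasi-likelihood test). Leaving out 1 heart gave -0.43 (without caffeine replicate 2) to -0.19 (without vehicle replicate 1), and the unadjusted p was above 0.05 in 4 of these 6 fits.

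Dld encodes E3, the dihydrolipoamide dehydrogenase that the complex shares with pyruvate and 2-oxoglutarate dehydrogenase and the glycine cleavage system. It was measured at 632, 556 and 534 CPM in vehicle controls and 501, 544 and 529 CPM in caffeine-treated hearts. The groups overlapped, and vehicle replicate 1 alone stood clear of the rest. The log2 fold change of -0.13 ± 0.09 (SE) was the smallest of the 4 genes of the complex (unadjusted p = 0.176, adjusted p = 0.735, edgeR quasi-likelihood test). Without vehicle replicate 1 it was -0.06 (unadjusted p = 0.522). Of the 4, then, 3 were lower at an unadjusted p below 0.05, against 4.4% of all genes, and the shared E3 was not among them. Without caffeine replicate 3 none of the 4 was, and without vehicle replicate 1 only Bckdhb was. Whether Dld differed from the other 3 in its response was not tested beyond the Dld to Bckdha ratio above, which overlapped.

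The first step and the leucine branch followed the same direction. Bcat2, the mitochondrial transaminase, was at 154, 132 and 139 CPM in vehicle controls and 129, 126 and 113 CPM in caffeine-treated hearts. The groups were apart by less than the spread within either of them. The log2 fold change was -0.21 ± 0.09 (SE; unadjusted p = 0.0477, adjusted p = 0.561, edgeR quasi-likelihood test), and the unadjusted p was above 0.05 with the exact test, DESeq2, size factors of the DESeq2 kind and a filter of 10 counts in every sample, and in 4 of the 6 fits with a heart left out. An antisense gene on the opposite strand covers 15.9% of its exonic bases.

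Ivd encodes isovaleryl-CoA dehydrogenase, which takes the leucine-derived acyl-CoA through its first oxidation. Levels were 553, 491.5 and 479 CPM in vehicle controls and 399, 443.5 and 414 CPM in caffeine-treated hearts. The groups were separate, with the caffeine-treated hearts closely spaced. The log2 fold change was -0.28 ± 0.09 (SE; unadjusted p = 0.00941, adjusted p = 0.348, edgeR quasi-likelihood test). Ivd and Ppm1k were the genes of the 10 that stayed below an unadjusted p of 0.05 in all 14 alternative fits, left-out hearts included.

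Mccc1 encodes the biotin-carrying subunit of 3-methylcrotonyl-CoA carboxylase, the step that follows IVD. It was found at 59.8, 52.6 and 47.0 CPM in vehicle controls and 45.7, 46.8 and 35.0 CPM in caffeine-treated hearts. Vehicle replicate 3 and caffeine replicate 2 nearly touched, and caffeine replicate 3 was well below the rest. The log2 fold change was -0.32 ± 0.13 (SE; unadjusted p = 0.0317, adjusted p = 0.512, edgeR quasi-likelihood test). It was -0.20 without caffeine replicate 3 (unadjusted p = 0.145), and the unadjusted p was also above 0.05 without vehicle replicate 1 (0.121) or vehicle replicate 2 (0.0575). Opposite-strand genes cover 5.6% of its exonic bases.

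Klf15, the transcription factor (chr6:90462576-90475238, plus strand), was at 113.5, 77.6 and 101 CPM in vehicle controls and 75.6, 73.1 and 96.1 CPM in caffeine-treated hearts. Vehicle replicate 2 was near the low caffeine-treated hearts and caffeine replicate 3 near the high vehicle controls, so the groups overlapped and both had a wide spread. The means of 97.5 ± 18.2 and 81.6 ± 12.6 CPM (SD, n = 3) differed by -0.26 ± 0.15 (SE) on the log2 scale (unadjusted p = 0.11, adjusted p = 0.669, edgeR quasi-likelihood test). In caffeine replicate 3 Klf15 was high while 5 of the other 9 genes had their lowest value there. The estimate was -0.13 without vehicle replicate 1, -0.40 without vehicle replicate 2 (unadjusted p = 0.0139) and -0.39 without caffeine replicate 3 (unadjusted p = 0.0302), with adjusted p of 0.549 or more in all 6 fits that left out a heart.

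Levels were also compared between genes, per kilobase of exon (RPKM). Bckdha was the most abundant in vehicle controls at 263.5 ± 12.2 RPKM (SD, n = 3), followed by Dld at 156 ± 13.9 and Ivd at 92.3 ± 7.22, and these 3 did not overlap with any neighbour. Below them came Bckdhb (44.1 ± 4.74), Bckdk (41.3 ± 2.84), Bcat2 (36.3 ± 2.90), Klf15 (34.9 ± 6.54), Dbt (25.1 ± 2.80) and Ppm1k (24.85 ± 0.42 RPKM), each of which overlapped with its neighbours in this order. Mccc1 was lowest at 4.85 ± 0.58 RPKM. E1α transcript was thus more abundant than E1β or E2 transcript, within the limit given above for reads shared with B3gnt8. With the length of the principal transcript in place of all exons, Bcat2 moved from rank 6 to rank 4, at 79.98 RPKM, and Ppm1k and Dbt exchanged ranks 8 and 9. Mccc1 stayed last, but at 21.6 ± 2.61 RPKM (SD, n = 3) it was then close to Dbt at 25.45 ± 2.84 RPKM, so its distance from the others rests on the length used. In caffeine-treated hearts the order by mean was the same except that Bckdk stood above Bckdhb.

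**Figure D3:**
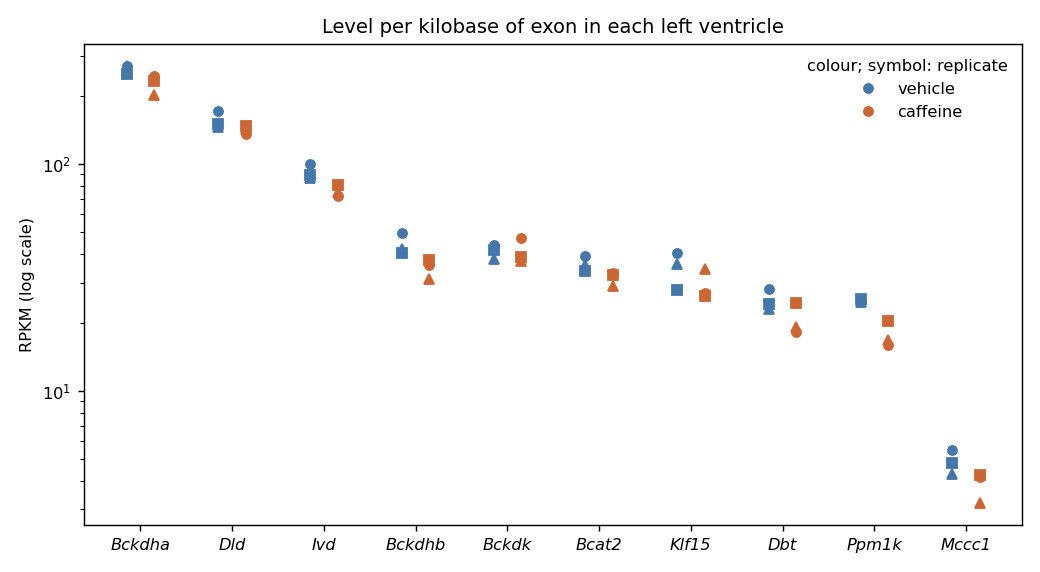
RPKM, on a log scale, of the 10 genes in each heart, ordered by the mean in vehicle controls; blue points are vehicle controls and orange points caffeine-treated hearts, with the symbol giving the replicate number. Bckdha, Dld and Ivd stand apart at the top, Mccc1 at the bottom by this measure of length, and the groups differ by far less than the genes do.

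The remaining enzymes of the pathway were read as a list. Of 15 other enzymes of branched-chain catabolism, 14 were tested, and the cytosolic transaminase Bcat1 was left out at 0.585 to 1.21 CPM. None passed the thresholds (edgeR quasi-likelihood test, and none by the exact test, DESeq2 or limma-voom). Of the 14, 13 had a log2 fold change below 0, with a median of -0.14, against 49.8% of all genes. At an unadjusted p below 0.05, 4 were lower, against the 4.4% of all genes. The other tools gave 3 or 4. Without caffeine replicate 1, or without caffeine replicate 3, the count was 2.

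Mccc2, the partner subunit of Mccc1, had the smallest p of these, with 83.4, 74.6 and 69.8 CPM in vehicle controls and 62.5, 59.9 and 63.0 CPM in caffeine-treated hearts. The groups did not overlap, and the log2 fold change was -0.30 ± 0.09 (SE; unadjusted p = 0.00896, adjusted p = 0.346, edgeR quasi-likelihood test), close to the -0.32 of Mccc1. Acadsb, the short/branched-chain acyl-CoA dehydrogenase of the isoleucine branch, was at 182, 170.5 and 166 CPM and then 146, 147 and 145 CPM. Its caffeine-treated hearts were almost identical to each other (-0.24 ± 0.08, unadjusted p = 0.0114, adjusted p = 0.361). Aldh6a1, of the valine branch, and Pcca, a subunit of propionyl-CoA carboxylase, had log2 fold changes of -0.22 and -0.23 (adjusted p = 0.512 and 0.55). Pcca is named because it completes the count of 4, which was done after its value was seen. All 3 branches thus had an enzyme among the 4, and no branch was tested against another.

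**Figure D4:**
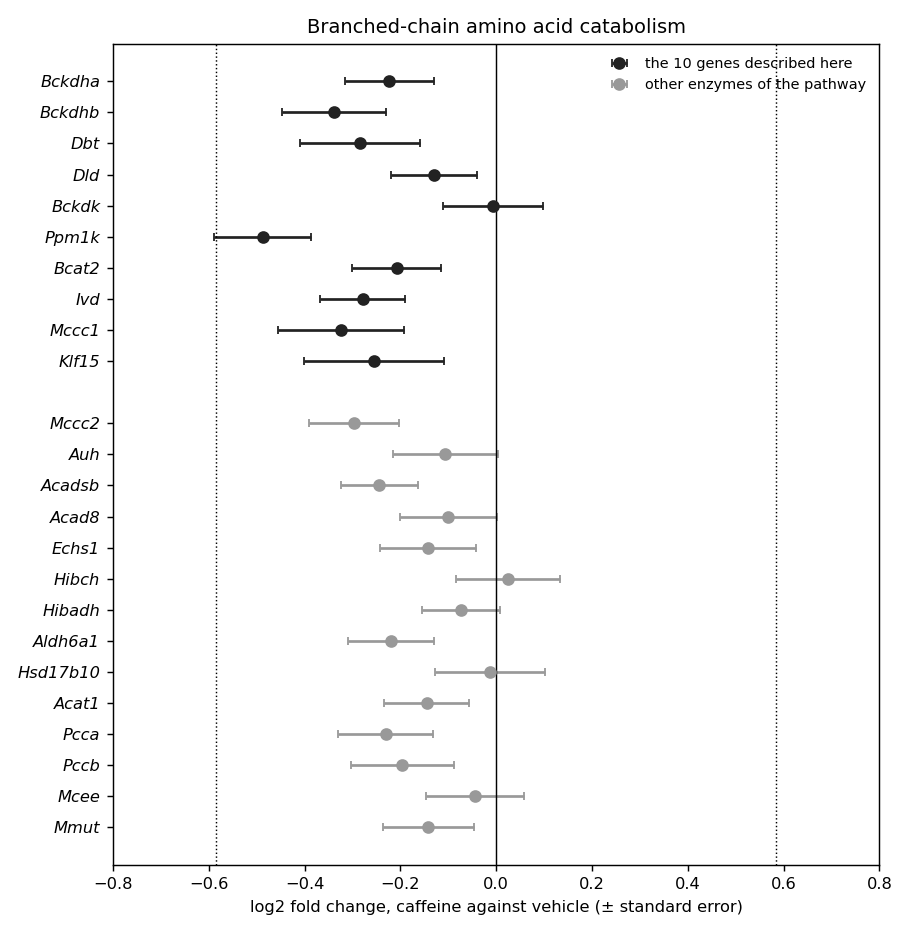
Log2 fold change, caffeine against vehicle, with its standard error, for the 10 genes (black) and the 14 other enzymes tested (grey); dotted lines mark a 1.5-fold change in either direction. No point reaches a dotted line, Ppm1k comes nearest at -0.49, and Bckdk lies at about 0.

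Uptake of the amino acids was covered by 6 transporter genes, and none passed an unadjusted p of 0.05. Values were below 0 for 5 of the 6 (median -0.10), where 49.8% of all genes lay below 0. Slc43a1, a facilitated transporter of large neutral amino acids, showed the largest value, -0.69 ± 0.32 (SE; unadjusted p = 0.058, adjusted p = 0.588, edgeR quasi-likelihood test), at only 1.13 to 3.32 CPM.

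Neighbouring mitochondrial enzymes were examined because Dld and biotin link them to these genes. Of 7 tested genes of the other complexes that use Dld, 6 had values below 0, against 49.8% of all genes, with a median of -0.08. Pdha1, the E1α of pyruvate dehydrogenase, was lower by 0.22 on the log2 scale (unadjusted p = 0.0452), and Gcsh, the lipoyl carrier of glycine cleavage, was higher at 0.41 ± 0.12 (unadjusted p = 0.00671, adjusted p = 0.317). The kinases and phosphatases of pyruvate dehydrogenase had a median of -0.03 over 7 genes. Pdk4, a pyruvate dehydrogenase kinase, was at 2024 CPM in vehicle replicate 1 and 738 to 1094 CPM in the other 5 hearts. The same heart was highest for most genes of branched-chain catabolism. That was not particular to them, since vehicle replicate 1 was also highest for every listed subunit of pyruvate and 2-oxoglutarate dehydrogenase. Of 5 other biotin enzymes, 4 had values below 0 (median -0.21), against the same 49.8% of all genes, and none passed an unadjusted p of 0.05.

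Lower values were also seen outside branched-chain catabolism. All 14 enzymes of the tricarboxylic acid (TCA) cycle had values below 0, with a median of -0.13, where 49.8% of all genes lay below 0. Each of the 14 had its highest level in vehicle replicate 1. At an unadjusted p below 0.05, 2 were lower, where 4.4% of all genes were. These were Cs, the citrate synthase, at -0.27 ± 0.10 (adjusted p = 0.422), and Sdha, the flavoprotein of succinate dehydrogenase, at -0.30 ± 0.12 (adjusted p = 0.497, edgeR quasi-likelihood test). The median of the 10 genes, at -0.27, was lower than that of the TCA cycle, and this difference between lists was not tested. The 6 cardiomyocyte markers had a median of -0.09 and all 5 fibroblast markers lay above 0, with a median of 0.26.

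Genes that are known to depend on KLF15 were described apart from the pathway. Gpt, an alanine aminotransferase, was at 60.5, 51.1 and 46.1 CPM in vehicle controls and 35.6, 36.1 and 27.9 CPM in caffeine-treated hearts. No caffeine-treated heart reached the vehicle controls, and its log2 fold change of -0.66 ± 0.13 (SE) was past the fold threshold but not the adjusted one (unadjusted p = 0.00043, adjusted p = 0.122, edgeR quasi-likelihood test). It did pass both with the exact test and DESeq2, but neither the adjusted threshold nor both with limma-voom. Slc27a1, a fatty acid transporter, was lower by 0.31 (unadjusted p = 0.00442, adjusted p = 0.279). The other 3 of the 5 genes had values of -0.18 to 0.04.

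Other KLF genes had a median of -0.02 over 11 tested. Klf11 was at -0.49 ± 0.15 (unadjusted p = 0.00861, adjusted p = 0.341) and Klf6 at 0.26 ± 0.09 (unadjusted p = 0.0176), in opposite directions. Klf15 is under circadian and glucocorticoid control, so both lists were read as well. Of 16 clock and output genes tested, 7 had values below 0 (median 0.03). At an unadjusted p below 0.05, 2 were lower (Hlf and Cry2), where 4.4% of all genes were. Cry2 overlapped between the groups, at -0.31 ± 0.12 (SE; unadjusted p = 0.0296, adjusted p = 0.501, edgeR quasi-likelihood test). Hlf, a clock output factor, was at 38.9, 41.8 and 46.6 CPM in vehicle controls and 20.1, 34.9 and 23.9 CPM in caffeine-treated hearts. The groups did not overlap, with a log2 difference of -0.68 ± 0.17 (SE; adjusted p = 0.23, edgeR quasi-likelihood test). The exact test and DESeq2 called it, and limma-voom did not. Glucocorticoid-induced genes went both ways, with 3 of 6 below 0. Zbtb16 (-0.43, adjusted p = 0.269) and Fkbp5 (-0.53, unadjusted p = 0.0135) were lower and Mt2, a metallothionein, was higher (0.73, unadjusted p = 0.00543). The time of day at which the hearts were taken is not given in the sources used here.

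**Figure D5:**
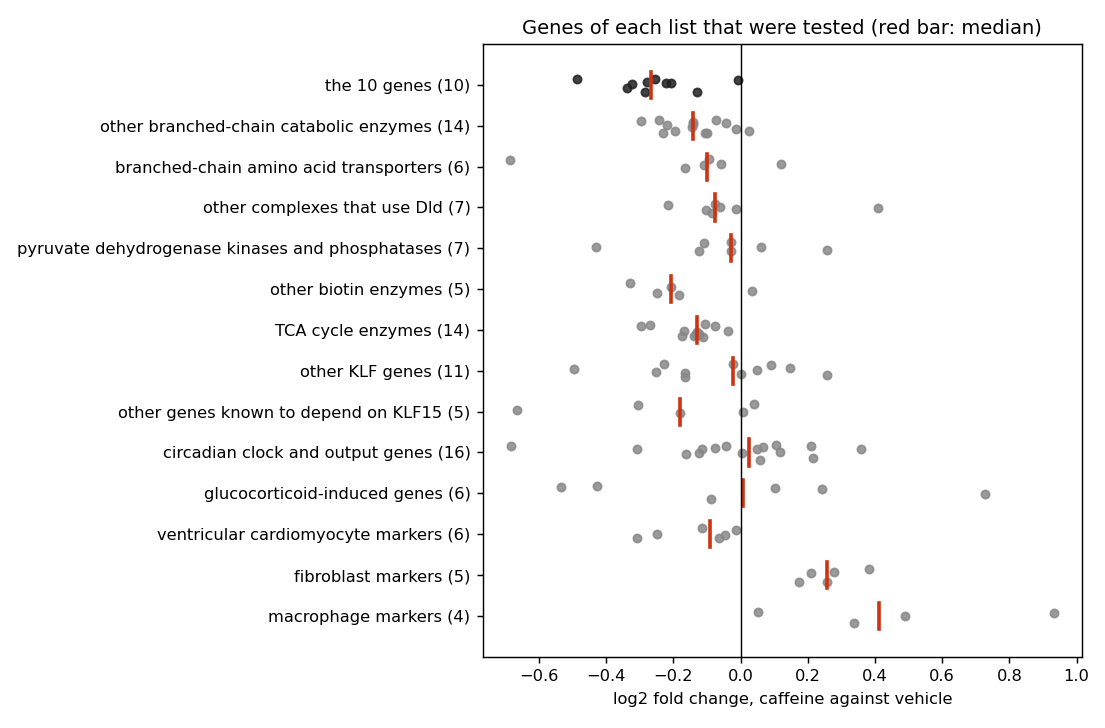
Log2 fold change, caffeine against vehicle, of each tested gene in 14 lists; each point is 1 gene, red bars are medians, and the number tested stands in brackets. The 10 genes have a median of -0.27, the 14 other enzymes -0.14 and the TCA cycle -0.13, while fibroblast and macrophage markers lie above 0.

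For Ppm1k and Ivd, the genes with the smallest p, the most similar profiles over the 6 hearts were sought among all tested genes, by the root mean square difference of centred log2 CPM. The 5 nearest to Ppm1k were Carns1 (0.0601), B3gnt3 (0.0754), Magi2 (0.0802), Osgin1 (0.0805) and Ccdc141 (0.0842), where the profile of Ppm1k itself spans 0.663. Ccdc141, a cytoskeletal gene with high cardiac expression, was the most abundant of them, at 114.6, 117.8 and 110.5 CPM in vehicle controls and 80.9, 86.1 and 82.75 CPM in caffeine-treated hearts. The nearest of the other genes of the pathway here was Dbt, at rank 124. The 5 nearest to Ivd were Eml1 (0.0229), Myo18a (0.0341), Acsf3 (0.0379), Cs (0.0444) and Cpt2 (0.0468), over a span of 0.472. Acsf3, Cs and Cpt2 encode mitochondrial enzymes of malonate, citrate and fatty acid metabolism. Both profiles hold the group difference itself, and 6 hearts allow many genes to match.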

How the data were processed

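Left ventricular poly(A) RNA of 6 mice was sequenced as single-end reads. Per the labels and the study's methods, the authors checked the reads with FastQC, used TopHat2 for mapping to mm10 (GRCm38) and HTSeq for gene-level counting, and the deposited values are raw counts, 1 file per heart, not normalized or pooled. The library kit does not mark strand. The counting mode and strand setting are not given in the sources used here.

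From these counts, genes were filtered (filterByExpr, minimum count 10, minimum total 15), scaled by TMM and tested with the edgeR quasi-likelihood test (edgeR 4.0.16, R 4.3.3), treatment as the only term, with Benjamini-Hochberg adjustment over 13092 genes. Thresholds were adjusted p below 0.05 and fold change above 1.5. The common dispersion was 0.0145. SE is the absolute log2 fold change divided by the square root of F. CPM uses TMM factors; RPKM divides by the union of exons (GENCODE M21, matched by Ensembl identifier). Ratios were tested by an exact two-sided permutation of the hearts. The alternatives were the exact test, DESeq2 1.42.0, limma-voom (limma 3.58.1), size factors of the DESeq2 kind, scaling by library size alone, no filter, 10 counts in every sample, the replicate number as a block and each heart left out. The counts of genes at unadjusted p below 0.05 or without overlap, and the other transcript length, were recomputed as alternatives chosen after seeing the data. Scripts were tested on simulated data. Sequences are from RefSeq (GRCm38.p6). Floors of 3 counts were scaled by raw totals, without TMM factors, and cover counting error only.

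The 10 genes and the lists were chosen with earlier results of these data known. Every one of the 10 was named, and of each other list the genes past the thresholds and up to 3 with the smallest unadjusted p (Pcca and the untested Bcat1 were named beyond this rule, after their values were seen). For the 2 of the 10 with the smallest p, the 5 genes nearest in profile were named. One gene of the list of other enzymes is not reported here. Cell type markers were read as sums per heart, and for fibroblasts and macrophages the markers without overlap were named after their values were seen.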

Additional observations from a re-analysis of the deposited data

How the results depend on the processing

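None of the 10 genes, and none of the 14 other enzymes, passed both thresholds under any alternative. Ppm1k passed the adjusted p alone with the exact test (log2 fold change -0.487, adjusted p = 0.00872), DESeq2 (-0.485, 0.00918) and no filter (-0.508, 0.000319), and its adjusted p ranged from 0.051 to 0.386 with 1 heart left out. Over all genes, the count past the thresholds was 14, but 95 with the exact test, 67 with DESeq2, 27 with library size only, 240 with no filter and 4 to 28 with 1 heart left out. Of the 10 genes, 3 to 6 were lower at an unadjusted p below 0.05 with 1 heart left out (7 with all), and of the other enzymes 2 to 5 (4 with all), or 7 with library size only, which moved the median of all genes to -0.084. The sign of Bckdk turned in 4 of 6 left-out hearts (0.036, 0.004, 0.033 and 0.060; range -0.118 to 0.060). Same-numbered hearts did not deviate together (correlations over genes of 0.045, -0.03 and -0.0375). No pairing by replicate number was seen, but 3 hearts a group cannot exclude one. The replicate block gave 40 genes past the thresholds and Ppm1k at -0.495 (adjusted p = 0.0851, edgeR quasi-likelihood test). The Bckdk to Ppm1k difference under the block, 0.485, equals the value without it by arithmetic, so it cannot show an effect of the block. Leaving out a heart of 3 leaves groups of 3 and 2, where the exact permutation test of a ratio cannot go below 0.2. The depth, 7613011 counts at the least, limits genes near the floor such as Bcat1, none of the 10.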
